A study of Mus musculus with 9 samples.

Results

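Trace amine-associated receptors, encoded by the Taar genes, are one of the receptor families through which mouse olfactory sensory neurons detect odors. The genes examined were 10 olfactory members, Taar2, Taar3, Taar4, Taar5, Taar6, Taar7a, Taar7b, Taar7d, Taar7e and Taar9, taken by gene symbol from a table of 55291 genes. They are not the whole family, as 16 genes of that table had symbols that start with Taar. The summed Taar level and the Taar share below cover these 10 alone. RNA had been sequenced from the main olfactory epithelium of 9 C57BL/6 mice aged 8 to 12 weeks. The 3 wild-type mice carried no deletion, the 3 Ms4a cluster knockout mice (Ms4a cluster-/-) had lost the genomic cluster of Ms4a genes by CRISPR/Cas9, and the 3 Ms4a6c knockout mice (Ms4a6c-/-) had lost Ms4a6c alone by homologous recombination. Both deletions were germline, so every cell of the tissue carried them. Ms4a genes encode membrane proteins that are not G protein-coupled receptors. Several serve as odor receptors of the necklace sensory neurons, while the authors report Ms4a1 outside the necklace, in other sensory neurons of the epithelium. The comparison of these epithelia asked how far the loss of Ms4a genes went with a change in the expression of other genes, here of a different odor receptor family.

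Trace amine-associated receptors are G protein-coupled receptors for volatile amines, many of them from urine or decaying tissue. Each Taar-expressing neuron generally transcribes a single receptor gene, as a neuron with an odorant receptor of the Olfr family does, and it signals through the same G protein (Gnal), adenylyl cyclase (Adcy3) and cyclic nucleotide-gated channel. Most of these neurons lie in the dorsal zone of the epithelium. Taar1, the founding member, is not an olfactory receptor and is known from brain.

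The 10 genes lay on chromosome 10 of mouse genome build GRCm38, from 23938572 to 24109534, a span of 171.0 kb, with 7 on the plus strand and 3 (Taar6, Taar7a and Taar9) on the minus strand. Taar2 was annotated with 2 exons and the others with 1. Their gene models in GENCODE M21 held coding sequence only, 1014 to 1077 bases each. The counts were made on GENCODE M25, whose models of these genes were not compared, so whether reads over untranslated parts were counted is unknown here, and levels per kilobase below rest on the M21 lengths. Across their coding sequences the family was diverse, with identities of 50.5% to 71.8% in 39 of the 45 pairs and of at least 93.1% in the 6 pairs of Taar7a, Taar7b, Taar7d and Taar7e. The stretch of 60 bases that was most alike in all 10 genes is shown for 5 of them, 5′ to 3′ on the gene's own strand, to show how little the family shares, with the 29 bases identical in all 10 genes in capitals. It lay at chr10:23970885-23970944 in Taar5, chr10:23985414-23985473 in Taar6, chr10:24027440-24027499 in Taar7d and chr10:24109302-24109361 in Taar9, and began at base 171 of the coding sequence of Taar2.
Taar2: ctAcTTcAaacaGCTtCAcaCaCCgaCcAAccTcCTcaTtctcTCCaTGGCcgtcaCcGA
Taar5: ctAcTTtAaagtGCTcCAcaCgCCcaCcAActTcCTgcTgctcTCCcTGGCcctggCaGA
Taar6: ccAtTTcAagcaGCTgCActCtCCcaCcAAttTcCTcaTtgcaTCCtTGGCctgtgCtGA
Taar7d: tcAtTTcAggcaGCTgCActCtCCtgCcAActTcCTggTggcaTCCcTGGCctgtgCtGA
Taar9: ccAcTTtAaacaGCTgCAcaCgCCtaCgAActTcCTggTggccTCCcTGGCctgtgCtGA

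The 4 Taar7 genes differed most over their first 60 coding bases, shown from the start codon as the stretch of this length with the most positions that differ among the 4. Capitals mark the 26 positions at which the 4 genes were not all identical. The stretch lay at chr10:23993422-23993481 in Taar7a, chr10:23999939-23999998 in Taar7b, chr10:24027222-24027281 in Taar7d and chr10:24037614-24037673 in Taar7e.
Taar7a: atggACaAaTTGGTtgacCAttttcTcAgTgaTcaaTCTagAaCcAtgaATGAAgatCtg
Taar7b: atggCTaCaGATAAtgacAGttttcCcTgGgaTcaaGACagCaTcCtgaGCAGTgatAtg
Taar7d: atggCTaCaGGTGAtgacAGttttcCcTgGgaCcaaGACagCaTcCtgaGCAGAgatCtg
Taar7e: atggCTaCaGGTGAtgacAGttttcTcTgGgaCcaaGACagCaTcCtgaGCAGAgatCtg

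At the other end of the gene, Taar7a and Taar7b were identical over 182 bases, positions 832 to 1013 of the coding sequence (chr10:23992469-23992650 on the minus strand for Taar7a, chr10:24000770-24000951 on the plus strand for Taar7b). This run is longer than a read and is shown because a read inside it, taken without the other read of its pair, matches both genes.
Taar7a and Taar7b: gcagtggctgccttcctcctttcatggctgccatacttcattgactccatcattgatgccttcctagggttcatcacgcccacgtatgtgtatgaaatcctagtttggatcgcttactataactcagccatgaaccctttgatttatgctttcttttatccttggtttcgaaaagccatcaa

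Of all windows of 150 bases, the length of a read, 19.9% of those in Taar7e, 3.56% of those in Taar7a and in Taar7b and 2.91% of those in Taar7d were also present in another Taar7 gene, and none of those in the other 6 members were. Counts that the quantification divided between genes appeared as fractions: 22 of the 90 values of the 10 genes in the 9 mice were not whole numbers (tolerance 0.001), and all 22 were among the 36 values of the Taar7 genes. Fractions occurred in 8 of the 9 mice for Taar7e, 7 for Taar7b, 4 for Taar7a and 3 for Taar7d. The division of reads among Taar7 genes is therefore uncertain, for Taar7e and Taar7b in most mice.

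Each mouse had 13954591 to 21987174 counts over all genes. Targeted genes matched the labels: Ms4a6c counts were 53.95, 90.34 and 81.53 for wild type, 0 in each Ms4a cluster knockout mouse, and 0, 2.35 and 2 in the Ms4a6c knockout mice. Levels are given as CPM, each count relative to a library size scaled by edgeR's TMM method. Wild-type mouse 1 and Ms4a cluster knockout mouse 2 stood apart, with TMM scaling factors of 0.702 and 0.704 against 1.071 to 1.126 in the other 7. In these 2 mice the summed level of 6 genes of Bowman's and nasal glands, such as the odorant-binding protein gene Obp1a, was 208500 and 213200 CPM, against 3391 to 33380 CPM in the others. All 6 mature sensory neuron markers, Omp among them, were present in every mouse, at a summed 9844 to 12480 CPM, which is the labelled tissue. For some genes, fold changes are also given without these 2 mice.

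All 10 Taar genes were detected, at low counts. A single gene had between 2 counts (Taar5 in Ms4a6c knockout mouse 3) and 92 counts (Taar6 in Ms4a6c knockout mouse 1) in a mouse, and the 10 together had 160.8 to 472.1. With a detection limit of 3 counts, 9 of the 10 genes were above it in every mouse, and Taar5, the receptor for trimethylamine, in 6 of 9 mice. In the 9 mice Taar5 had 3, 8 and 6 counts in wild-type, 10, 3 and 7 in Ms4a cluster knockout and 9, 4 and 2 in Ms4a6c knockout mice. The limit is 0.136 to 0.215 CPM before TMM scaling and covers counting error only. Another 6 genes of the table had symbols that start with Taar, and 1 of them was above the limit in every mouse while 1 had 0 counts in all of them. The gene with 0 counts was Taar1 and the detected one was the near-identical copy Taar7f, both named after their values were seen.

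Between genes, levels were compared per kilobase of exon. Taar7d was at a mean of 2.94 CPM per kb over the 9 mice (range 1.65 to 4.33), Taar7a at 2.84 (1.96 to 4.12), Taar6 at 2.67 (1.301 to 3.81) and Taar2, the member with a spliced coding sequence, at 2.37 (1.66 to 3.59). Taar9 followed at 1.57 CPM per kb (1.10 to 2.78), Taar7b at 1.33 (0.899 to 2.17), Taar4, a receptor for phenylethylamine, at 1.29 (0.668 to 1.74) and Taar7e at 1.07 (0.625 to 1.58). The lowest levels were those of Taar3, a receptor for isoamylamine, at 0.708 CPM per kb (0.331 to 0.988) and of Taar5 at 0.317 (0.126 to 0.494). The ranges of each gene and the next in this order overlapped over the mice. Compared within each mouse, Taar2 was above Taar9, Taar4 above Taar7e and Taar3 above Taar5 in 8 of 9 mice. The other steps held in 5 to 7 of 9 mice. The ends of the order were steadier: Taar7a was among the 3 highest in 9 of 9 mice and Taar7d in 8, and Taar5 ranked 9 or 10 in every mouse. In the wild-type mice alone, 4 genes changed rank, Taar2 passing Taar6 and Taar7b passing Taar9.

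**Figure D1:**
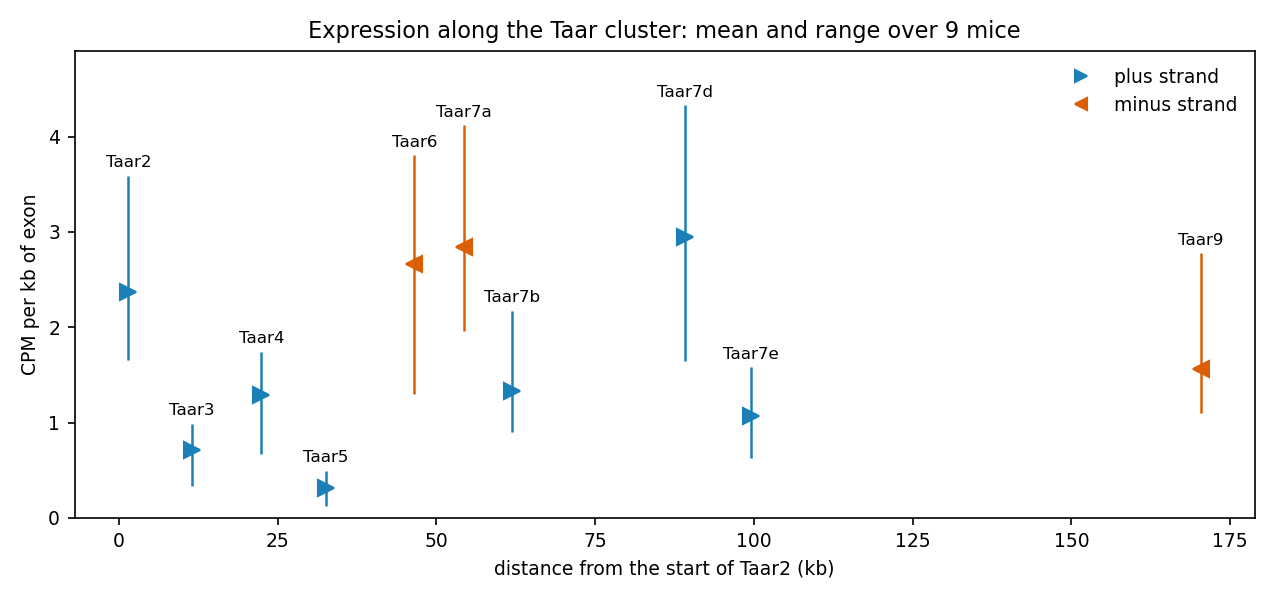
Mean CPM per kb of exon of each of the 10 Taar genes (triangles, pointing along the strand) with the range over the 9 mice (lines), against the distance of the gene's middle from the start of Taar2 in kb. Taar3, Taar4 and Taar5 lie next to each other between Taar2 and Taar6 with means of 0.317 to 1.29, and the higher Taar6, Taar7a and Taar7d are interleaved with the lower Taar7b and Taar7e.

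Neighbours along the cluster were at like and at unlike levels. Taar6 and Taar7a, adjacent on the minus strand, were at similar means. Taar7b and Taar7d, both on the plus strand and 94.0% identical in sequence, differed in their means (1.33 and 2.94 CPM per kb). Their ranges over the mice overlapped, but within single mice Taar7d ranked 1 to 4 among the members and Taar7b 5 to 8.

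Set against the odorant receptor genes of the Olfr family, the Taar genes spread over most of the range. Of 1408 Olfr genes deposited, 1109 passed the count filter and were tested. Among these the median level was 1.05 CPM per kb (quartiles 0.487 and 1.996), and the median of the 10 Taar genes was 1.45. Taar7d, Taar7a, Taar6 and Taar2 were above 83.9%, 83.5%, 81.5% and 79.0% of the Olfr genes. Taar9, Taar7b, Taar4 and Taar7e were above 66.5%, 59.2%, 57.9% and 50.4%, and Taar3 and Taar5 above 36.4% and 16.1%. Single mice varied around these, for instance from 59.2% to 89.5% for Taar6 and from 18.9% to 53.4% for Taar3. The Olfr models had a median length of 3050 bases, untranslated parts included, against 1014 to 1077 bases of coding sequence for the Taar genes, so the percentiles depend on the models compared. Against the 18 tested Olfr genes whose models held no untranslated part (a comparison chosen after seeing the data), with a median of 0.105 CPM per kb, 9 Taar genes were above every one and Taar5 above 94.4% of them. These 18 were a low group, as the median over all 1109 was 1.05 CPM per kb. The comparison therefore cannot show where the Taar genes would stand among Olfr genes with models of like length.

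**Figure D2:**
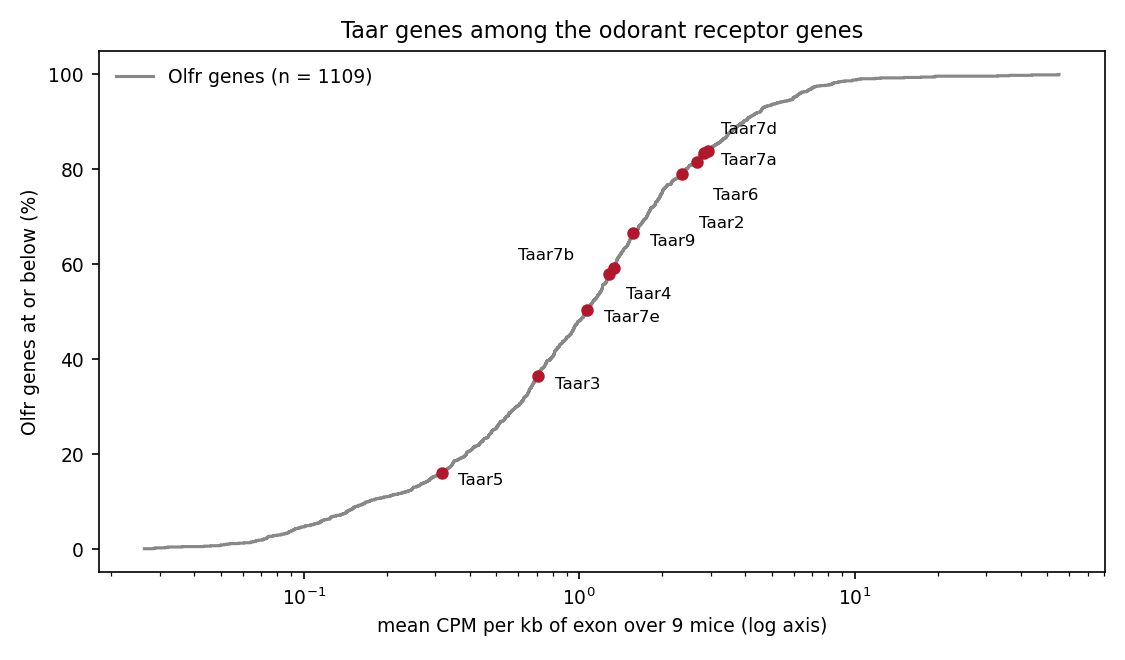
Cumulative share of the 1109 tested Olfr genes (grey line, percent) by mean CPM per kb of exon over the 9 mice (log axis), with the 10 Taar genes as points at their own levels. Taar5 sits at 16.1%, Taar7e at 50.4% and Taar7d at 83.9% of the Olfr genes.

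Summed over the 10 genes, Taar expression was 13.1, 22.2 and 20.4 CPM in the wild-type mice, 17.1, 16.0 and 14.8 CPM in the Ms4a cluster knockout mice and 19.4, 19.5 and 19.9 CPM in the Ms4a6c knockout mice. The wild-type range held all the knockout values, while the values of the knockouts did not overlap each other. Means were 18.6 ± 4.84, 16.0 ± 1.15 and 19.6 ± 0.277 CPM (SD, n = 3 mice each), and no test was made of this sum over the 10 genes. The lowest wild-type value was that of mouse 1, one of the 2 that stood apart. Without these 2 mice the log2 ratio of Ms4a cluster knockout to wild-type means was -0.42, against -0.22 with them, and that of Ms4a6c knockout to wild-type was -0.12, against 0.08. In bulk tissue, fewer Taar-expressing neurons and less Taar RNA per neuron cannot be told apart.

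As a share of all Olfr and Taar counts, the 10 genes made up 0.272% ± 0.0651 in wild-type, 0.255% ± 0.0224 in Ms4a cluster knockout and 0.288% ± 0.00766 in Ms4a6c knockout mice (SD, n = 3 each). These are shares of counts with no regard to length, not of transcripts. The models of the tested Olfr genes were longer (median 3050 bases) than those of the Taar genes (1014 to 1077 bases). The wild-type shares overlapped those of both knockouts, while those of the knockouts (0.2327% to 0.2775% and 0.2795% to 0.293%) did not overlap each other. The lowest share was that of wild-type mouse 1, 184 of 93310 receptor counts, or 0.197% (95% Wilson interval 0.171% to 0.228%), and the highest that of wild-type mouse 2, 400 of 128549, or 0.311% (0.282% to 0.343%), so 2 mice of 1 genotype differed by more than counting error. The other mouse that stood apart, Ms4a cluster knockout mouse 2, had 0.278% (0.238% to 0.324%). The 4 Taar7 genes held 52.3% ± 3.87, 45.5% ± 4.21 and 48.1% ± 0.822 of the Taar counts in the 3 genotypes in the same order (SD, n = 3 each).

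**Figure D3:**
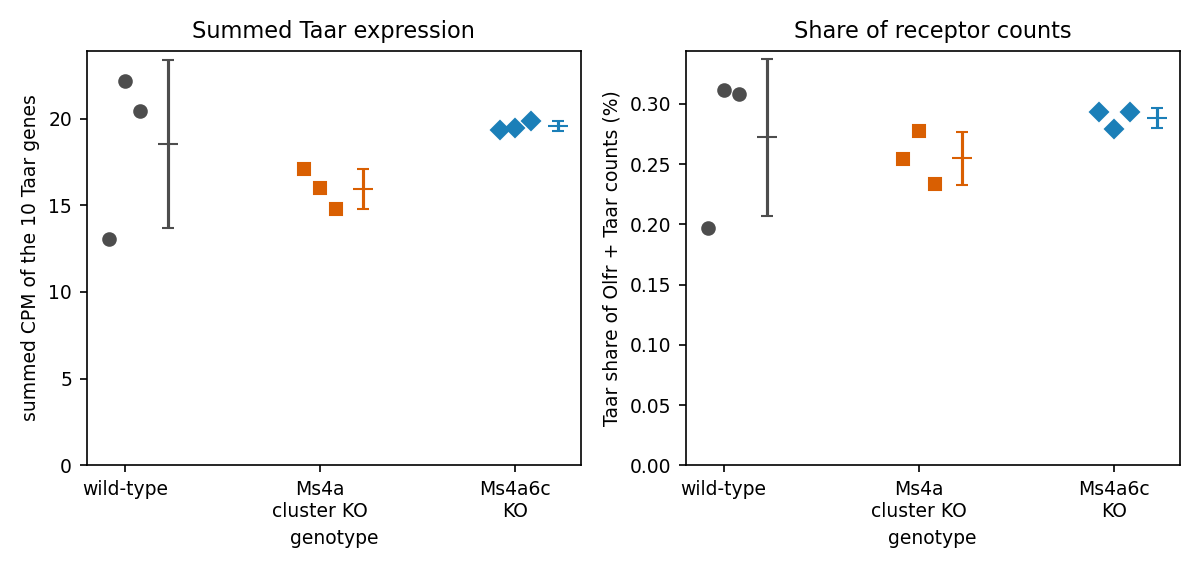
Summed CPM of the 10 Taar genes (left) and their percent share of all Olfr and Taar counts (right) in each mouse (points) by genotype, with the mean and SD of 3 mice (bars beside the points). Wild-type mouse 1 is lowest in both, at 13.1 CPM and 0.197%, and the 3 Ms4a6c knockout mice sit within 19.4 to 19.9 CPM.

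Within a genotype, the coefficient of variation between mice was 14.0% for Taar7a, where counting alone gives 13.8%, 19.9% for Taar6 (14.4% from counting) and 35.4% for Taar5 (41.6% from counting). Taar7d, Taar2 and Taar9 lay furthest above counting, at 34.3%, 32.7% and 39.0%, where counting gives 13.5%, 15.2% and 18.5%. Taar7e was at 34.6% (22.2% from counting), Taar4 at 25.7% (20.6%), Taar3 at 33.2% (28.6%) and Taar7b at 23.4% (19.9%). Taar7d was at 1.78, 4.66 and 4.33 CPM in the 3 wild-type mice, and Taar2 at 1.71, 3.66 and 2.39 CPM. Of both genes wild-type mouse 1 had the lowest wild-type value. Taar9 had its highest value, 2.91 CPM, in Ms4a cluster knockout mouse 1, against 1.15 to 2.16 CPM in the other 8 mice.

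The less abundant members overlapped between all genotypes. Taar4 was at 1.07, 1.498 and 1.82 CPM in the wild-type, 1.503, 0.698 and 1.05 CPM in the Ms4a cluster knockout and 1.23, 1.675 and 1.53 CPM in the Ms4a6c knockout mice, with its lowest value in Ms4a cluster knockout mouse 2, which stood apart. Taar7e was at 0.714, 1.504 and 1.71 CPM in the wild-type, 1.45, 0.673 and 1.25 CPM in the Ms4a cluster knockout and 0.838, 0.9925 and 1.21 CPM in the Ms4a6c knockout mice. Its lowest values in the wild-type and the Ms4a cluster knockout were those of the 2 mice that stood apart. Taar3 was at 0.924, 0.777 and 0.341 CPM in the wild-type, 0.8015, 0.897 and 0.601 CPM in the Ms4a cluster knockout and 0.533, 0.682 and 1.02 CPM in the Ms4a6c knockout mice, and its lowest value was in wild-type mouse 3.

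**Figure D4:**
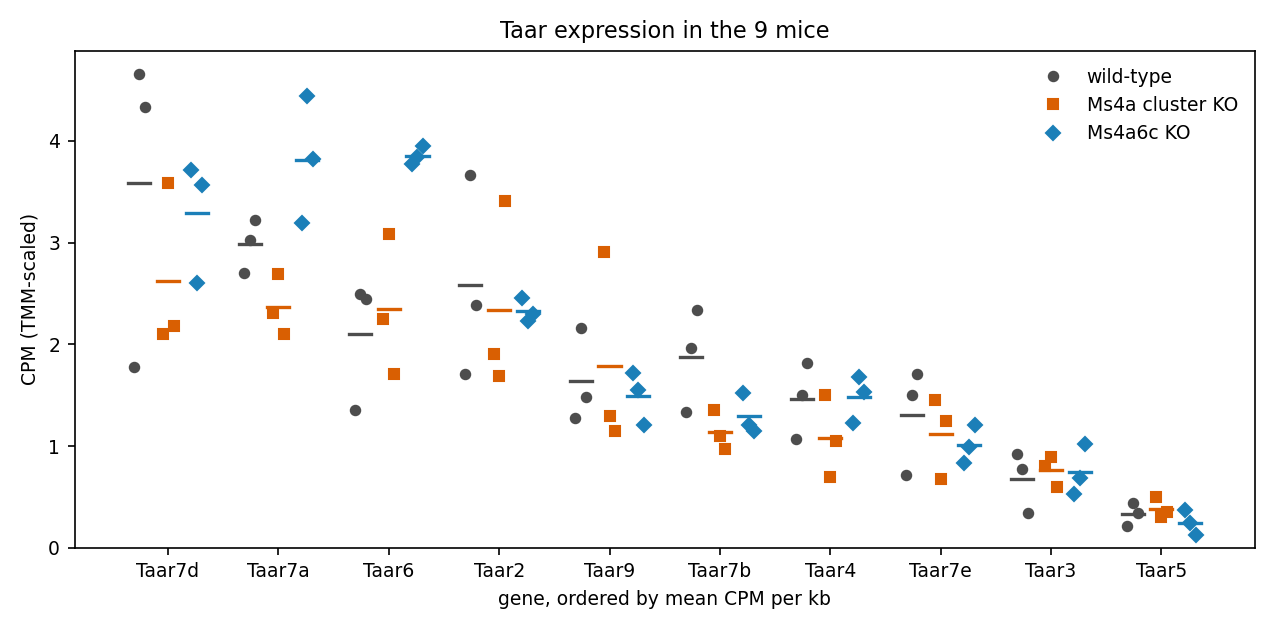
CPM of each Taar gene (x axis, ordered by mean CPM per kb) in each of the 9 mice (points), with the mean of 3 mice per genotype as a short line. The genotypes overlap for most genes. Taar6 is at 3.77 to 3.95 CPM in the Ms4a6c knockout, above the other 6 mice, and Taar7a is lower in all 3 Ms4a cluster knockout mice (2.11 to 2.69 CPM) than in the other 6.

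Between wild-type and Ms4a cluster knockout mice, none of the 10 Taar genes passed edgeR's quasi-likelihood test (adjusted p below 0.05 with adjustment over 23225 genes), where 0.0258% of all genes did. Their adjusted p-values were 0.968 to 1.0, and DESeq2 also called 0 of 10. The median log2 fold change was -0.15, with 4 of 10 genes above 0, against 0.01 over all tested genes and -0.08 over the Olfr genes. At an unadjusted p under 0.05 there was 1 gene, Taar7b, where 4.93% of all genes were. Taar7b was at 1.35, 1.10 and 0.968 CPM in the Ms4a cluster knockout and 1.33, 1.96 and 2.34 CPM in wild-type mice. The groups overlapped by 1 knockout value above the lowest wild-type value. Its log2 fold change was -0.73 (SE 0.29, 95% interval -1.37 to -0.08, unadjusted p = 0.0305, adjusted p = 0.968).

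Taar7a was the 1 gene whose Ms4a cluster knockout and wild-type values did not overlap, as for 9.87% of all tested genes. It was at 2.30, 2.69 and 2.11 CPM in the knockout and 2.70, 3.03 and 3.22 CPM in wild-type mice, the highest knockout value lying just under the lowest wild-type value. The log2 fold change of Taar7a was -0.36 (SE 0.20, 95% interval -0.80 to 0.09, adjusted p = 0.971). For 4 genes, Taar2, Taar6, Taar7a and Taar9, the interval lay within a 2-fold change in either direction, and for the other 6 it reached beyond 2-fold in at least 1 direction. With all 6 Taar7 genes of the table summed to 1 row, which leaves the division of reads among them aside, the log2 fold change was -0.37 (SE 0.16, 95% interval -0.72 to -0.01, adjusted p = 0.968).

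Without the 2 mice that stood apart, again no Taar gene passed. Taar7d, at 2.10, 3.59 and 2.19 CPM in the Ms4a cluster knockout, then had a log2 fold change of -1.06 (SE 0.23, unadjusted p = 0.00147, adjusted p = 0.321), against -0.49 (SE 0.35, adjusted p = 0.971) with all mice. With 1 mouse left out at a time it ran from -0.806 (without wild-type mouse 1) to -0.256 (without wild-type mouse 2). Taar6 changed sign, from 0.12 (adjusted p = 1.0) to -0.32 (adjusted p = 0.74). Taar7b was at -0.89 (SE 0.32, unadjusted p = 0.021, adjusted p = 0.51), against -0.73 with all mice.

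Between Ms4a6c knockout and wild-type mice, again none of the 10 genes passed, where 0.435% of all genes did, and the adjusted p-values were 0.281 to 1.0. DESeq2 called 0 as well, and gave Taar5 no adjusted p. The median log2 fold change was -0.13, with 3 of 10 genes above 0, against 0.08 over the Olfr genes, of which 3 passed. Taar6 was at 3.77, 3.85 and 3.95 CPM in the 3 knockout mice and at 1.35, 2.50 and 2.45 CPM in the wild-type mice. All 3 knockout values were above all wild-type values and close to each other. Its log2 fold change was 0.87 (SE 0.27, 95% interval 0.25 to 1.48, unadjusted p = 0.0103, adjusted p = 0.281). Taar6 was the 1 gene with an unadjusted p under 0.05, as 10.5% of all genes had, and the 1 gene whose groups did not overlap, as for 18.3% of all genes. Without the 2 mice that stood apart its log2 fold change was 0.64 (adjusted p = 0.174). Without them Taar7e was at -0.68 (unadjusted p = 0.0486, adjusted p = 0.32), against -0.40 with all mice, and Taar7d at -0.43 (adjusted p = 0.36), against -0.13. Taar7b was then at -0.72 (unadjusted p = 0.0325, adjusted p = 0.268), against -0.55, and Taar3 at 0.39 (adjusted p = 0.775), against 0.12. The summed level of 4 markers of sustentacular cells, the supporting cells of the epithelium, also lay apart in the Ms4a6c knockout, at 6979 to 7537 CPM against 5760 to 6053 CPM in wild-type and 5321 to 6230 CPM in Ms4a cluster knockout mice. That of 3 macrophage markers lay apart as well, but lower, at 32.38 to 34.56 CPM in the Ms4a6c knockout. It was 38.88 to 43.24 CPM in wild-type and 39.9 to 47.84 CPM in Ms4a cluster knockout mice. None of the 4 sustentacular markers passed in edgeR, and Cyp2g1 and Ermn passed in DESeq2. None of the 3 macrophage markers passed in either. Sustentacular cells and macrophages are named because their sums lay apart, and the sums of all other cell types examined overlapped between Ms4a6c knockout and wild-type mice. As 18.3% of all genes did not overlap in this comparison, a lack of overlap was common and does not single out these cell types. The part of sustentacular cells and macrophages in the values of Taar6 was not tested.

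Taar7a, at 3.19, 4.44 and 3.82 CPM in the Ms4a6c knockout, had a log2 fold change of 0.35 (SE 0.19, 95% interval -0.08 to 0.78, adjusted p = 0.566) against wild type, which was 0.216 without Ms4a6c knockout mouse 2. Its lowest knockout value lay below the highest wild-type value. Taar7b, at 1.53, 1.21 and 1.15 CPM in the Ms4a6c knockout, was at -0.55 (SE 0.28, adjusted p = 0.534). The interval lay within a 2-fold change for 5 genes, Taar2, Taar4, Taar7a, Taar7d and Taar9. Summed, the Taar7 genes had a log2 fold change of -0.03 (SE 0.16, 95% interval -0.39 to 0.32). Both knockouts were compared with the same 3 wild-type mice, so the comparisons are not independent.

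Between the knockouts, none of the 10 genes passed, where 0.443% of all genes did, and the adjusted p-values were 0.271 to 0.993. DESeq2 again called 0. The median log2 fold change of Ms4a cluster knockout over Ms4a6c knockout was -0.08, against 0.01 over all tested genes and -0.18 over the Olfr genes. Taar6 and Taar7a had an unadjusted p under 0.05, as 9.38% of all genes did, and the same 2 genes had groups that did not overlap, as did 16.0% of all genes. Taar6 was at 2.25, 3.09 and 1.70 CPM in the Ms4a cluster knockout, all below the 3.77 CPM that was lowest in the Ms4a6c knockout, with a log2 fold change of -0.74 (SE 0.27, 95% interval -1.35 to -0.13, adjusted p = 0.433). Taar7a had a log2 fold change of -0.70 (SE 0.20, 95% interval -1.14 to -0.26, unadjusted p = 0.00521, adjusted p = 0.271). Its highest Ms4a cluster knockout value was 2.69 CPM and its lowest Ms4a6c knockout value 3.19 CPM. Without the 2 mice that stood apart, Taar6 was at -0.96 (SE 0.20, unadjusted p = 0.00121, adjusted p = 0.109) and Taar7a at -0.79 (adjusted p = 0.211). Taar7d was then at -0.62 (unadjusted p = 0.0193, adjusted p = 0.36), against -0.36 with all mice, and Taar7e at 0.44 (adjusted p = 0.68), against 0.22.

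**Figure D5:**
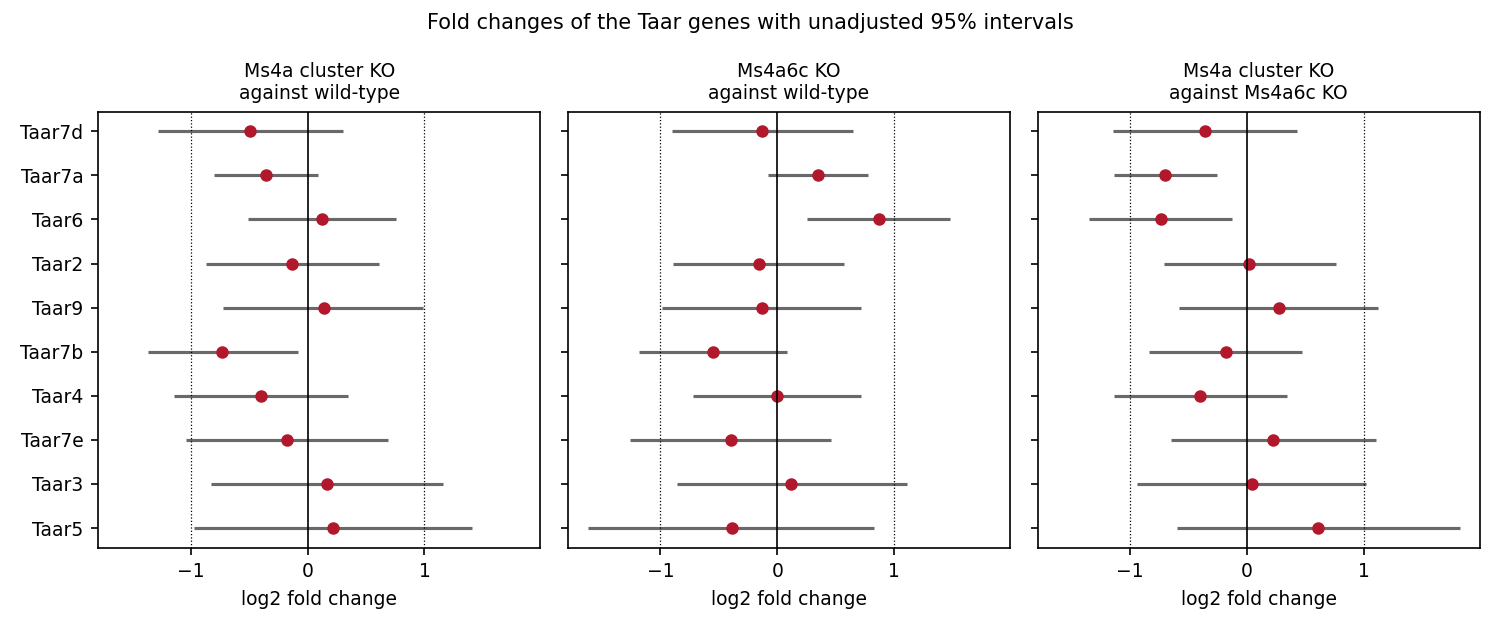
Log2 fold change (points) of each Taar gene with its unadjusted 95% interval (lines) in the 3 comparisons, from the edgeR fit of all 9 mice, with 0 as a solid line and a 2-fold change as dotted lines. The intervals that leave out 0 are those of Taar7b on the left, Taar6 in the middle, and Taar6 and Taar7a on the right, and none of these passed adjustment.

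The precision of the fold changes differed between genes. The half-width of the 95% interval on the log2 scale was narrowest for Taar7a, at 0.44, 0.43 and 0.44 in the 3 comparisons, and widest for Taar5, at 1.19, 1.23 and 1.21. For Taar5 the half-width exceeded a 2-fold change. Taar7d, with the most counts (495.3 over the 9 mice), had an SE of 0.35 for Ms4a cluster knockout over wild type, above the 0.29 of Taar7b with 227.1 counts. Of Taar3 and Taar5, for Ms4a cluster knockout over wild type, the intervals ran from -0.83 to 1.16 and from -0.97 to 1.41.

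Among genes that act with these receptors, 14 of odor transduction were tested, and 1 passed. Gng13, which encodes the gamma subunit of the olfactory G protein, was at a mean of 193.2 CPM in Ms4a6c knockout, 359.1 CPM in wild-type and 373.2 CPM in Ms4a cluster knockout mice. It was lower in the Ms4a6c knockout than in wild-type mice (log2 fold change -0.89, SE 0.09, edgeR adjusted p = 0.00121) and higher in the Ms4a cluster knockout than in the Ms4a6c knockout (0.95, SE 0.09, adjusted p = 0.00073). The other 13, Gnal, Adcy3 and the channel genes among them, passed in none of the 3 comparisons in edgeR, and DESeq2 added Pde1c between the knockouts. The median log2 fold change over the 14 was -0.09, 0.04 and -0.14 for Ms4a cluster knockout over wild type, Ms4a6c knockout over wild type and Ms4a cluster over Ms4a6c knockout.

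By edgeR, none of 17 genes of receptor trafficking and receptor choice, such as Rtp1 and Lhx2, passed in any comparison, with a lowest adjusted p of 0.327. At an unadjusted p under 0.05 there was 1 of 17 in each comparison, where 4.93%, 10.5% and 9.38% of all tested genes were, in the order given for odor transduction. Of 9 genes that mark the dorsal and ventral zones, such as Nqo1, none passed, with a lowest adjusted p of 0.274 and with 0, 1 and 3 of 9 at an unadjusted p under 0.05 in the same order. Of 9 genes for enzymes of monoamines and trace amines 8 could be tested and none passed, with a lowest adjusted p of 0.277 and with 1, 3 and 1 of 8 at an unadjusted p under 0.05. Nor did any of 20 genes that flank the Taar cluster, the nearest 10 tested on either side, pass, with a lowest adjusted p of 0.336 and with 0, 4 and 4 of 20 at an unadjusted p under 0.05. DESeq2 called 0 genes of these 4 lists, but gave no adjusted p to 1, 2 and 1 of the 8 enzyme genes and to 3, 7 and 3 of the 20 flanking genes, which it could therefore not call. Among the markers of 14 cell types, Gng13, which is also on the mature neuron list, was the only gene that passed in edgeR in any comparison. DESeq2 called Gng13, 3 sustentacular genes (Cyp2g1, Ermn and Sult1c1) and Frzb, a marker of ensheathing glia, in comparisons with the Ms4a6c knockout.

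Over the 9 mice, the genes whose log2 CPM was most like that of the summed Taar genes, of 16530 genes with a mean of at least 1 CPM, were Tspan11 (Pearson r = 0.959), Zfp658 (0.944), Abhd3 (0.942), Rassf1 (0.930) and Nek1 (0.926). The median absolute r over all these genes was 0.317, and that of Omp, a marker of mature sensory neurons, was 0.583. These values describe 9 points that share the scaling and the libraries that stood apart.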

How the data were processed

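RNA of the main olfactory epithelium of 9 mice, 3 of each genotype, was made into directional poly-A libraries and sequenced from both ends. Per the labels and methods, the authors aligned reads with STAR 2.6.1 in DolphinNext, quantified them with RSEM 1.3.1 on GENCODE M25 (mm10, which is GRCm38), and deposited expected counts per gene, not normalized; their own comparison used DESeq2 1.30.1.

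Groups and replicate numbers came from the sample labels. The labels call the controls littermates, and the same 3 wild-type mice served both knockouts. Expected counts were rounded, and 23225 genes with at least 10 counts over the 9 mice went, after TMM scaling, into edgeR 4.0.16 (R 4.3.3; quasi-likelihood test), where all 9 mice shared 1 model and p-values were adjusted over all tested genes by Benjamini-Hochberg. Fold changes are unshrunk, with SE and 95% intervals from the fit's weights and quasi-dispersion. DESeq2 1.42.0 was an alternative. Coordinates, exon lengths and sequences were taken from GENCODE M21, also on GRCm38, through transcript identifiers, which placed 99.6% of the genes deposited, and sequences were aligned with MAFFT 7.526. Summed levels, shares and correlations (log2 CPM with a pseudocount of 0.1) are descriptions with no test. The exception is the sum of the Taar7 genes, which was tested in edgeR as 1 row. The procedure was tested on simulated counts, with changes planted only in genes above a mean of 1 CPM. Taar3 and Taar5, at means of 0.7307 and 0.3215 CPM, lay below that level, so the simulation does not cover them. The planted changes were 2-fold or more, above every Taar fold change with all 9 mice. The simulation therefore does not cover changes of that smaller size, and nothing about the Taar genes is drawn from it. Python 3.11.15, scipy 1.17.1 and matplotlib 3.10.9 were used.

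Depth was 13954591 to 21987174 counts a mouse. Reads carry no molecular identifiers, so intervals of shares and the limit of 3 counts cover counting error only.

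The genes named were all 10 Taar genes, the genes of fixed lists that passed, the 5 genes most like the summed Taar genes, and the targeted genes. The members and lists were chosen with earlier results of these data known. The alternatives were other scaling, filters, samples in the fit, a replicate block, DESeq2, an adjusted p under 0.01, Omp as a covariate, the Taar7 genes summed, and leaving out each mouse.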

Additional observations from a re-analysis of the deposited data

How the results depend on the processing

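No Taar gene passed an adjusted p under 0.05 in any of the 3 comparisons under any alternative that tested it. The filter made by edgeR left out Taar5, and the fit with the Taar7 genes summed did not test them singly, so these genes could not pass there. The lowest adjusted p was 0.109, for Taar6 between the knockouts without the 2 mice that stood apart (wild-type mouse 1 and Ms4a cluster knockout mouse 2), an alternative chosen after seeing the data. Of 555 refits of single genes 33 turned the direction, all among fold changes that did not pass. This leaves out Taar4 in the Ms4a6c knockout against wild type, which was at -0.0 and ran from -0.175 to 0.188. With the plain library size, the log2 fold change of Taar9 in the Ms4a6c knockout against wild type was 0.018, and those of Taar2 and Taar3 between the knockouts (Ms4a cluster over Ms4a6c) were -0.114 and -0.149. That of Taar3 was -0.026 with Omp as a covariate and -0.065 without both mice, and that of Taar6 for Ms4a cluster knockout over wild type was -0.32 without both mice. Leaving out 1 mouse at a time, the Ms4a cluster knockout against wild type ran from -0.523 to 0.204 for Taar2, -0.165 to 0.433 for Taar3, -0.034 to 0.48 for Taar5, -0.104 to 0.317 for Taar6, -0.456 to 0.059 for Taar7e and -0.44 to 0.396 for Taar9. The sign turned without wild-type mouse 2 and without Ms4a cluster knockout mice 1 and 2 for Taar2, without wild-type mouse 3 for Taar3 and Taar7e, without wild-type mouse 1 for Taar5, Taar6 and Taar9, without Ms4a cluster knockout mouse 1 for Taar5 and Taar9, and without mouse 2 for Taar6 and Taar7e. The Ms4a6c knockout against wild type ran from -0.376 to 0.181 for Taar2, -0.206 to 0.392 for Taar3, -0.44 to 0.104 for Taar7d and -0.278 to 0.12 for Taar9 and turned without wild-type mouse 2 for Taar2, Taar7d and Taar9, wild-type mouse 3 for Taar3 and Taar7d, Ms4a6c knockout mouse 3 for Taar3 and Ms4a6c knockout mouse 2 for Taar7d. The knockouts against each other ran from -0.366 to 0.187 for Taar2, -0.17 to 0.328 for Taar3 and -0.306 to 0.53 for Taar9, and turned without Ms4a cluster knockout mouse 3 (Taar2), 1 (Taar3, Taar9) and 2 (Taar3) and without Ms4a6c knockout mouse 1 (Taar3) and 2 (Taar2, Taar3).

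The summed Taar log2 ratio of Ms4a cluster to Ms4a6c knockout, -0.294, was -0.47 with the plain library size and -0.181 relative to mature neuron markers. In wild-type mice alone 4 genes changed rank. The cause was not tested.

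Replicate numbers did not pair the mice: deviations of same-numbered mice from their group means had mean correlations of -0.366, -0.03 and 0.00354 over 16537 genes in the 3 comparisons (Ms4a cluster and Ms4a6c knockout against wild type, then the knockouts), and 0, 0 and 1 of 3 mice correlated best with their own number. With the replicate block no Taar gene passed, Taar2 between the knockouts was at -0.015, and the genes that passed over the whole table numbered 2, 71 and 75 in place of 6, 101 and 103. DESeq2 gave 18, 345 and 271. At an adjusted p under 0.01 edgeR gave 3, 58 and 60. For the Ms4a6c knockout against wild type, the count was 182 with no filter, 170 with Omp as a covariate, 352 without both mice, 159 without Ms4a cluster knockout mouse 2, and 59 and 60 without wild-type mouse 2 and 3. For the knockouts it was 155 with no filter, 58 with the plain library size, and 66 and 67 without Ms4a6c knockout mouse 2 and 3. Counts were 2 to 92 a gene and mouse. The spread between mice was above counting error for all members but Taar5, barely so for Taar7a and most for Taar7d, Taar2 and Taar9.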
